A study of Mus musculus with 12 samples.

Results

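The genes described here are the 10 NF-kappa-B subunit and inhibitor genes Rela, Relb, Nfkb1, Nfkb2, Nfkbia, Nfkbib, Nfkbie, Nfkbiz, Tnfaip3 and Tnip1. They were chosen by gene symbol, and all 10 were found among the 27020 genes of the 24 h table and the 26240 genes of the 4 h table. RNA sequencing was done on primary cardiac fibroblasts, the connective tissue cells that lay down the heart's matrix, from C57BL/6 mice. The 12 libraries form 4 groups of 3: 6 µM MCB-613-10-1 for 24 h, ethanol vehicle for 24 h, 6 µM MCB-613-10-1 for 4 h and ethanol vehicle for 4 h. All groups were grown in medium with fetal bovine serum, and the labels give no age of the mice, no passage number and no genetic change. MCB-613-10-1 is a derivative of the compound MCB-613, and the series asks how it changes the signals that cardiac fibroblasts make. The labels do not say whether the 3 libraries of a group came from separate cultures or animals. P-values therefore measure only the spread between these libraries, which may be technical. The samples are cultured bulk cells, so fewer cells of a type and less RNA per cell cannot be told apart.

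NF-kappa-B is a family of dimeric transcription factors that switch on inflammatory, survival and stress genes. RelA (p65, from Rela) and p50 (made from the Nfkb1 product) form the classical dimer, and RelB with p52 (made from the Nfkb2 product) forms the non-canonical one. In resting cells the I-kappa-B proteins from Nfkbia, Nfkbib and Nfkbie hold the dimers in the cytoplasm until the I-kappa-B kinase (IKK) complex marks them for breakdown. Nfkbiz encodes a nuclear I-kappa-B that helps to induce a subset of targets, among them Il6. Tnfaip3 encodes A20, a ubiquitin-editing enzyme that damps the pathway, and Tnip1 encodes its binding partner ABIN1. Several of these genes, Nfkbia and Tnfaip3 among them, are themselves NF-kappa-B targets and so form negative feedback loops. In cardiac fibroblasts the pathway is known for driving cytokine and chemokine production after injury.

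Promoter sequences from RefSeq (build GRCm38.p6), spanning 250 bases before to 50 bases after the annotated start, were matched for 7 of the 10 genes, in 10 windows. The 4 windows printed next are a selection. They belong to Nfkbib, which had the largest response to the compound, and to Nfkbia, Nfkb2 and Tnfaip3. These 3 are among the genes whose levels were lower at 24 h than at 4 h in both treatments. The printed windows run 5′ to 3′ on the strand of the gene. Matches on either strand to the kappa-B consensus, the textbook NF-kappa-B binding motif, are in capitals.
Nfkbib (chr7:28766595-28766894, minus strand): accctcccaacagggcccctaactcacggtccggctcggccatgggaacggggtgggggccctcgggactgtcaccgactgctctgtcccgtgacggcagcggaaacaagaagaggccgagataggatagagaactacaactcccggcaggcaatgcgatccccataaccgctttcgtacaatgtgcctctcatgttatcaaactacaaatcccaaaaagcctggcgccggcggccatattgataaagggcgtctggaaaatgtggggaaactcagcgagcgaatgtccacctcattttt
Nfkbia (chr12:55492598-55492897, minus strand): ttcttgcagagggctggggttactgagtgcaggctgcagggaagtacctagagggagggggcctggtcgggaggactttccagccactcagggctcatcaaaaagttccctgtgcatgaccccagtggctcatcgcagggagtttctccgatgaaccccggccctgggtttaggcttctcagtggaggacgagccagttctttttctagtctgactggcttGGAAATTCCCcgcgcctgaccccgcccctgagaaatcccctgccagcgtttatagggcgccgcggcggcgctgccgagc
Nfkb2 (chr19:46304487-46304786, plus strand): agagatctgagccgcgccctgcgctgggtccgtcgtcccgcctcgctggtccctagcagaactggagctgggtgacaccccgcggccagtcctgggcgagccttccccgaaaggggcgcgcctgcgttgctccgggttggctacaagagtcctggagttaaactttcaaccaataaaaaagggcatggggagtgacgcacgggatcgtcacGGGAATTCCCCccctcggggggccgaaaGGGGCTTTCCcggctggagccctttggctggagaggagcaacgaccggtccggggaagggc
Tnfaip3 (chr10:19015361-19015660, minus strand): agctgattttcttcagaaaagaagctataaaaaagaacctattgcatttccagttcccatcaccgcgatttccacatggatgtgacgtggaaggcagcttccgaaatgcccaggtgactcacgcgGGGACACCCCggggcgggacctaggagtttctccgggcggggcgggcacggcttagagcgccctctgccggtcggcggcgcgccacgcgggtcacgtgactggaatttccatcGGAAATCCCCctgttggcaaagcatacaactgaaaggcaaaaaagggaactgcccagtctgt

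The kappa-B consensus was matched in the windows of 5 of the 7 genes, namely Nfkb2, Nfkbia, Nfkbie, Tnfaip3 and Tnip1. It was matched in 5.14% of the 27025 genes with a window in the RefSeq table. Where 2 matches overlap, as at bases -39 to -29 of the Nfkb2 window, the capitals cover both. No match was found in the windows of Rela and Nfkbib, or in the Tnfaip3 window that is not printed. Of the matched genes not printed, Nfkbie was lower and Tnip1 higher at 24 h than at 4 h in both treatments. Whether a match goes with a change in level was not tested. The core of the antioxidant response element, TGACNNNGC, was matched in the Nfkbia window alone, at bases -13 to -5, and in 14% of all genes. The heat shock element pair TTCNNGAA was matched in 0 of the 7 genes and in 9.6% of all genes. The ATF4 element TGATGNAA was matched in 1 of the 7, in a second Tnfaip3 window, and in 4.51% of all genes. Both strands were searched, none of these other motifs overlapped a kappa-B match, and a match is a run of letters, not a measured binding site.

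Library totals ranged from 25016754 to 34877090 counts. The lowest count of any of the 10 genes was 93, for Nfkbie, so all 10 passed the filter on low counts at both times. With edgeR's quasi-likelihood test and an adjusted p under 0.05, 74.7% of the 15575 genes tested at 24 h were called, 36.7% higher and 38% lower in treated cells. Vehicle 4 h replicate 1 stood somewhat apart, with Pearson correlations of log2 CPM across genes of 0.986 with both other libraries of its group, beside 0.990 to 0.993 for the other pairs within groups. Without it 0 of the 10 genes were called at 4 h, as with it. At 4 h 7.16% of 15336 genes were called, 3.45% higher and 3.71% lower. These shares are the background for the edgeR counts of the responses at 24 h and at 4 h that follow. Other comparisons and other settings have other shares. Fibroblast markers were abundant, with a summed level of 4529 to 5024 CPM (counts relative to the TMM-scaled library size) in treated 24 h libraries and 11509 to 15832 CPM in vehicle 24 h libraries. At 4 h the sum was 10506 to 12566 CPM in treated and 10483 to 12223 CPM in vehicle libraries. Scaling by library totals alone, in place of TMM (edgeR's trimmed mean scaling between libraries), moved the median log2 fold change of all genes at 24 h to -0.21, against -0.02 with TMM. It changed the split of calls at 24 h to 4529 higher and 7095 lower, against 5713 and 5915 with TMM.

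All 4 subunit genes rose after 24 h of MCB-613-10-1, by 1.26-fold to 1.63-fold. Of the 6 inhibitor genes 2 rose, Nfkbib by 3.58-fold and Nfkbiz by 1.56-fold, and 4 did not pass the test. In all, 6 of 10 were called, beside 74.7% of all genes, so the number of calls is not particular to these genes. The median log2 fold change of the 10 was 0.36, beside -0.02 for all genes tested, and was 0.53 for the subunits and -0.00 for the inhibitors. With edgeR 0 of the 10 were called lower, with 1 at an unadjusted p under 0.05 in that direction (Nfkbie), 1 by DESeq2 (Tnfaip3) and 0 by limma on FPKM. Scaled by library totals alone, 6 were called higher and 3 lower.

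**Figure D1:**
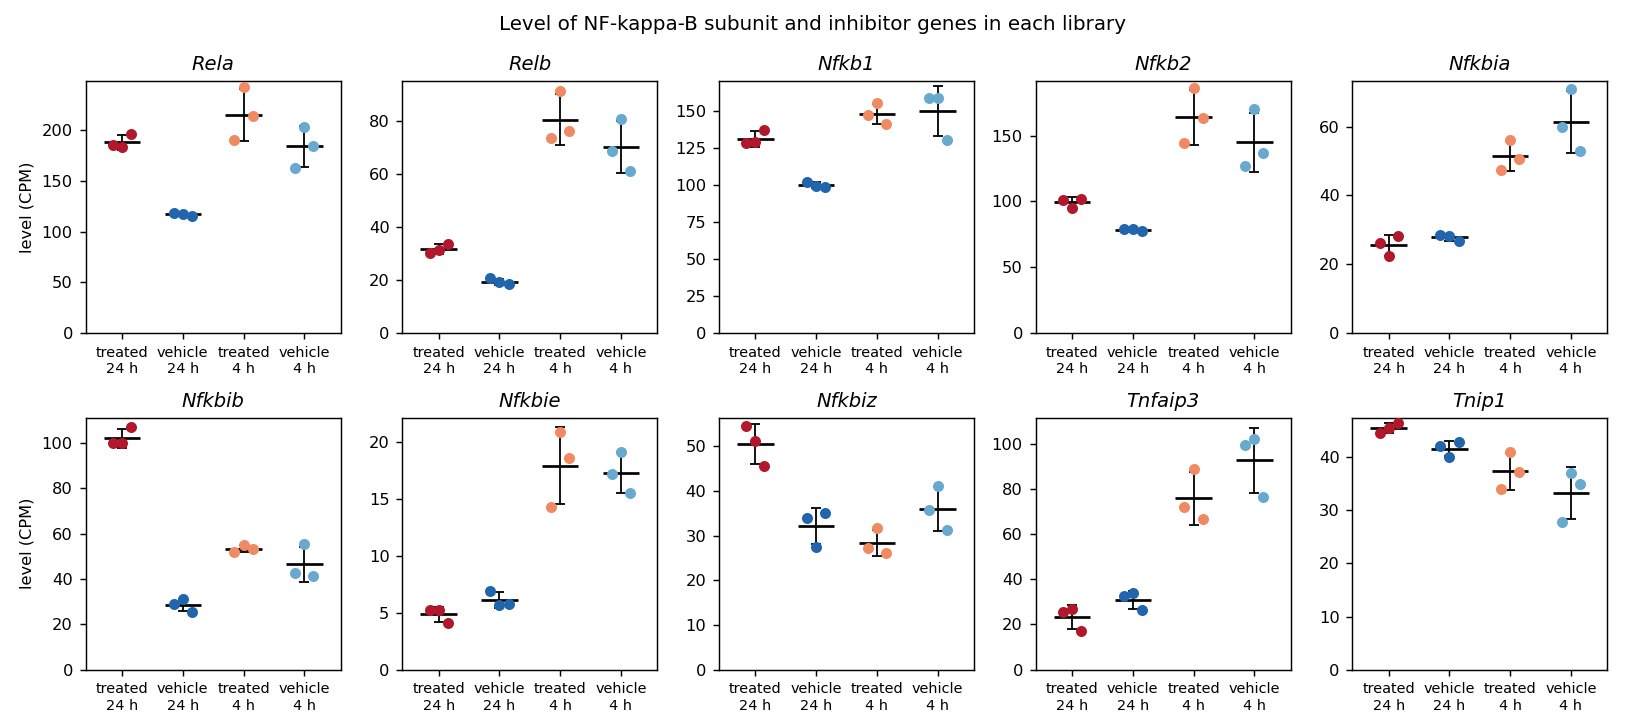
Level of the 10 genes in each library, in CPM on axes that start at 0, with treated and vehicle groups at 24 h and then at 4 h. Points are libraries, bars are means and error bars are SD (n = 3). At 24 h treated Nfkbib sits between 99.8 and 107 CPM, above its vehicle libraries at 25.6 to 31.1 CPM. At 4 h treated and vehicle ranges overlap in all 10 panels, and the share of all genes that overlap was not counted.

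Rela (ENSMUSG00000024927, GRCm39 chromosome 19, 5687511 to 5698158, plus strand) encodes the main activating subunit. Its level was 185, 183 and 196 CPM in treated 24 h libraries, against 118, 117 and 115 CPM in vehicle 24 h libraries. The groups did not overlap, and the log2 fold change was 0.68 ± 0.05 (SE; adjusted p = 6.69e-11, edgeR). Relb (ENSMUSG00000002983, chromosome 7, 19340142 to 19363363, minus strand), the non-canonical partner, had 30.2, 31.4 and 33.8 CPM in treated libraries, against 20.7, 19.2 and 18.4 CPM in vehicle libraries. Every treated library was above every vehicle library, and the log2 fold change was 0.70 ± 0.08 (SE; adjusted p = 9.91e-08, edgeR).

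The precursor genes moved less. Nfkb1 (ENSMUSG00000028163, chromosome 3, 135290416 to 135397308, minus strand), source of p50, had 128, 129 and 137 CPM in treated 24 h libraries, against 102, 99.4 and 98.6 CPM in vehicle 24 h libraries. Nfkb2 (ENSMUSG00000025225, chromosome 19, 46292759 to 46300824, plus strand), source of p52, had 101, 94.8 and 102 CPM in treated libraries, against 79.4, 78.7 and 77.6 CPM in vehicle libraries. Neither gene's groups overlapped. The log2 fold changes were 0.39 ± 0.05 for Nfkb1 (SE; adjusted p = 4.54e-07) and 0.33 ± 0.05 for Nfkb2 (SE; adjusted p = 6.26e-06, edgeR). By the whole-gene spans of the deposited tables, Nfkb2 shares 299 bases with Psd and 1317 bases with 4833438C02Rik, both on the other strand. Psd had 328 to 989 counts per library and a log2 fold change of 0.82 at 24 h, beside 2310 to 5015 counts for Nfkb2. Whether the library kit marked strand is not stated, so reads in shared bases cannot be told apart.

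Nfkbib (ENSMUSG00000030595, chromosome 7, 28457676 to 28466937, minus strand), which encodes I-kappa-B beta, changed most among the 10. It had 99.8, 100 and 107 CPM in treated 24 h libraries, against 28.8, 31.1 and 25.6 CPM in vehicle 24 h libraries. The lowest treated library was above the highest vehicle library by more than the spread within either group. The log2 fold change was 1.84 ± 0.07 (SE; adjusted p = 4.57e-15, edgeR), with a 95% interval of 1.70 to 1.98. Nfkbib ranked 416 of 15575 genes by p-value in this comparison. It shares 778 bases with Sirt2 on the other strand, a gene with 1659 to 3977 counts per library and a log2 fold change of 0.93 at 24 h (adjusted p = 1.3e-12, edgeR). Nfkbib itself had 850 to 3017 counts per library, and reads in the shared bases cannot be told apart. It also shares 718 bases with Ccer2, which had 0 to 4 counts per library.

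Nfkbiz (ENSMUSG00000035356, chromosome 16, 55631738 to 55659262, minus strand), the nuclear I-kappa-B zeta, had 54.5, 51.2 and 45.7 CPM in treated 24 h libraries, against 34, 27.5 and 35.1 CPM in vehicle 24 h libraries. The groups did not overlap, and the log2 fold change was 0.64 ± 0.10 (SE; adjusted p = 4.63e-05, edgeR). Nfkbia (ENSMUSG00000021025, chromosome 12, 55536195 to 55539432, minus strand), which encodes I-kappa-B alpha, had 26.1, 22.3 and 28.3 CPM in treated libraries, against 28.6, 28.2 and 26.6 CPM in vehicle libraries. Its groups overlapped, and the log2 fold change of -0.13 had a 95% interval of -0.31 to 0.05 (adjusted p = 0.169, edgeR). Nfkbie (ENSMUSG00000023947, chromosome 17, 45866629 to 45874095, plus strand), for I-kappa-B epsilon, had 5.24, 5.28 and 4.12 CPM in treated libraries, against 6.92, 5.67 and 5.78 CPM in vehicle libraries. The ranges did not overlap, and the log2 fold change of -0.33 had a 95% interval of -0.66 to -0.00 (adjusted p = 0.063, edgeR). The 3 classical I-kappa-B genes thus gave different values, a large rise for Nfkbib and no call for Nfkbia or Nfkbie.

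Tnfaip3 (ENSMUSG00000019850, chromosome 10, 18876658 to 18891405, minus strand) had 25.3, 27 and 17.1 CPM in treated 24 h libraries, against 32.5, 33.8 and 26.2 CPM in vehicle 24 h libraries. The ranges overlapped through the highest treated and the lowest vehicle library, and treated replicate 3 was the lowest of all 6. The log2 fold change of -0.42 ± 0.20 (SE) did not pass the test with edgeR (adjusted p = 0.108). Over the other settings its adjusted p ranged from 0.000129 to 0.23, and in the authors' deposited table it was -0.42 with an adjusted p of 0.00767. Without treated replicate 3 the value was -0.24 (adjusted p = 0.0408, edgeR). Tnip1 (ENSMUSG00000020400, chromosome 11, 54801611 to 54853743, minus strand) had 44.5, 45.5 and 46.4 CPM in treated libraries, against 42, 40 and 42.8 CPM in vehicle libraries. Its ranges did not overlap, yet the log2 fold change of 0.12 missed the threshold (adjusted p = 0.0776, edgeR) and was -0.07 when libraries were scaled by their totals alone.

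**Figure D2:**
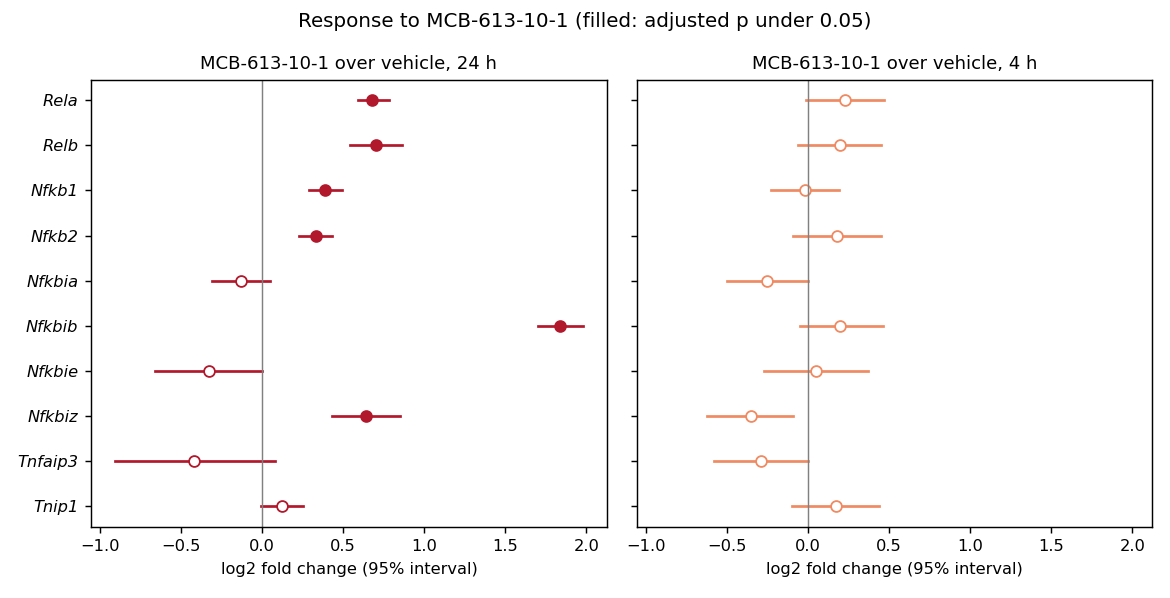
Log2 fold change of MCB-613-10-1 over vehicle for the 10 genes at 24 h and at 4 h, with 95% intervals. Filled points passed an adjusted p of 0.05. At 24 h 6 points are filled, from 0.33 for Nfkb2 to 1.84 for Nfkbib, and at 4 h 0 are.

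After 4 h of MCB-613-10-1, 0 of the 10 genes passed the test with edgeR, beside 7.16% of all genes. At an unadjusted p under 0.05 there were 2, Nfkbiz and Tnfaip3, both with values below 0. DESeq2, limma on FPKM and the authors' deposited table called 0 of the 10 as well. The treated and vehicle ranges overlapped for every gene, and the log2 fold changes lay between -0.35 for Nfkbiz and 0.23 for Rela. The share of all genes with overlapping ranges was not counted, so the overlap is not shown to be particular to these 10. Nfkbib had 52, 54.9 and 53.3 CPM in treated 4 h libraries, against 42.6, 55.4 and 41.2 CPM in vehicle 4 h libraries. Its 95% interval of -0.05 to 0.46 on the log2 scale lies below its 24 h interval. Nfkbiz had 27.2, 31.7 and 26.2 CPM in treated libraries, against 35.8, 41.2 and 31.4 CPM in vehicle libraries (log2 fold change -0.35, adjusted p = 0.106, edgeR). With the replicate number as a block, Nfkbiz and Tnfaip3 were called lower at 4 h, with adjusted p of 0.0253 and 0.0416. In the fit of all 12 libraries Nfkbiz alone was, with an adjusted p of 0.0498.

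The 24 h response was larger than the 4 h response for 5 of the 10 genes by an interaction test over all 12 libraries, beside 53.8% of all genes called and 26.7% called higher. The difference of the log2 fold changes was 1.64 ± 0.14 for Nfkbib (SE; adjusted p = 1.93e-08, edgeR). For Nfkbiz, whose value was below 0 at 4 h and above 0 at 24 h, the difference was 1.00 ± 0.16 (SE; adjusted p = 4.22e-05, edgeR). Among the subunits it was 0.51 for Relb, 0.46 for Rela and 0.41 for Nfkb1, with adjusted p of 0.00578, 0.0039 and 0.00354 (edgeR). Nfkb2 was not called, with a difference of 0.15 and a 95% interval of -0.14 to 0.45, so its rise at 24 h was not shown to differ from its value at 4 h. With edgeR 0 genes had a called difference below 0, with 0 at an unadjusted p under 0.05 and 0 by DESeq2. Scaled by library totals alone, 1 did, Nfkbie, with -0.52.

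In treated cells 5 of the 10 genes were lower and 3 higher at 24 h than at 4 h, beside 61.9% of all genes called (30% higher and 31.9% lower), and scaling by library totals alone gave 7 lower and 2 higher. In vehicle cells 8 were lower and 1, Tnip1, was higher, beside 54.3% of all genes (27.4% higher and 27% lower). Tnfaip3 had 25.3, 27 and 17.1 CPM in treated 24 h libraries, against 71.8, 88.8 and 66.5 CPM in treated 4 h libraries. In vehicle cells it had 32.5, 33.8 and 26.2 CPM at 24 h, against 99.2, 102 and 76.2 CPM at 4 h. The 24 h level was 3.26-fold lower in treated and 3-fold lower in vehicle cells (adjusted p = 6.15e-06 and 1.54e-05, edgeR). Nfkbie was 3.66-fold lower in treated and 2.81-fold lower in vehicle cells, and Nfkbia was 2.02-fold lower in treated and 2.2-fold lower in vehicle cells. Relb was 2.54-fold lower in treated cells and 3.62-fold lower in vehicle cells. Libraries of the 2 times also differed in the share of counts on ribosomal RNA genes, at 2.31% to 4.11% at 24 h and 0.571% to 1.12% at 4 h. In the deposited 24 h table the group means are named with a prefix that has no counterpart at 4 h and no explanation in the labels. Harvest time and any batch or other difference that goes with it cannot be told apart.

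Nfkbib and Nfkbiz stood on the other side of zero in treated cells. Nfkbib was 1.92-fold higher in treated 24 h than in treated 4 h libraries (adjusted p = 1.37e-07, edgeR), while in vehicle cells it was 1.63-fold lower at 24 h (adjusted p = 1.07e-05). Nfkbiz was 1.78-fold higher at 24 h in treated cells (adjusted p = 4.59e-06, edgeR) and was not called in vehicle cells, where its log2 difference was -0.17 (adjusted p = 0.232). In vehicle cells Rela and Nfkb1 were lower at 24 h, at -0.65 and -0.58 on the log2 scale. In treated cells their values were -0.20 (adjusted p = 0.0537) and -0.17 (adjusted p = 0.0602, edgeR), and they were called in the fit of the 6 treated libraries alone. Tnip1 was higher at 24 h by 0.29 in treated and 0.32 in vehicle cells on the log2 scale. Its treated value was 0.17 and no longer called after scaling by library totals alone, and 0.22 and not called without treated 4 h replicate 1.

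**Figure D3:**
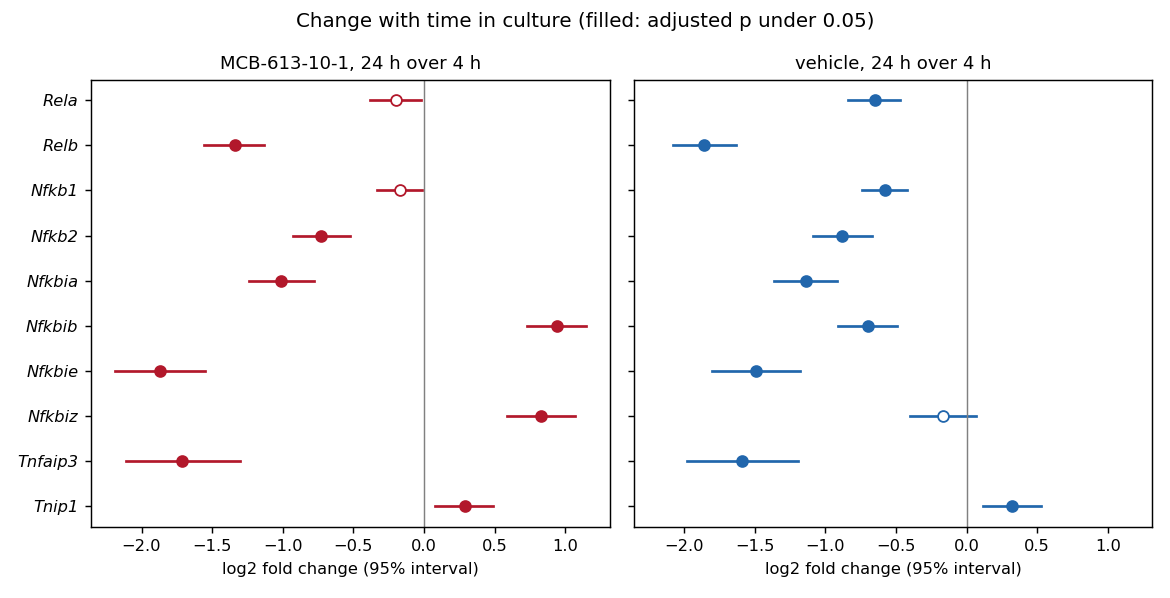
Log2 fold change of 24 h over 4 h libraries for the 10 genes, in cells with MCB-613-10-1 and in vehicle cells, with 95% intervals. Filled points passed an adjusted p of 0.05. Nfkbib lies at 0.94 in treated and at -0.70 in vehicle cells, and Tnfaip3, Nfkbie, Nfkbia, Relb and Nfkb2 lie below 0 in both.

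The order of the 4 groups differed between the genes. For Nfkbib the order was treated 24 h, treated 4 h, vehicle 4 h and vehicle 24 h, and only the 4 h groups, which are neighbours in it, overlapped. For Nfkbiz treated 24 h stood above the rest, and the next groups, vehicle 4 h, vehicle 24 h and treated 4 h, each overlapped their neighbour. For Rela the treated 4 h, treated 24 h and vehicle 4 h ranges overlapped in turn, and vehicle 24 h stood below them. For Relb and Nfkb2 the overlapping 4 h groups were highest, then treated 24 h, then vehicle 24 h. Nfkb1 also had the 4 h means highest, then treated 24 h, then vehicle 24 h, but its vehicle 4 h range of 130 to 159 CPM overlapped the treated 24 h range of 128 to 137 CPM. Nfkbia, Nfkbie and Tnfaip3 also had both 4 h groups, which overlapped, above both 24 h groups, with vehicle 24 h above treated 24 h in the mean. The 24 h ranges overlapped for Nfkbia and Tnfaip3 and stood apart for Nfkbie. Tnip1 was highest in treated 24 h, followed by vehicle 24 h, treated 4 h and vehicle 4 h, and its last 3 groups overlapped in turn.

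Levels divided by gene length in kilobases (RPKM) allow the genes to be set beside each other. In treated 24 h libraries Rela was highest at 61.1 ± 2.41 RPKM, Nfkbib followed at 47.2 ± 1.97 and Nfkb2 at 21.7 ± 0.874 (SD, n = 3). Nfkbie was lowest at 1.6 ± 0.215 RPKM. In vehicle 24 h libraries Rela was again highest at 37.9 ± 0.425 RPKM, but Nfkbia at 17.3 ± 0.662 and Nfkb2 at 17.1 ± 0.201 stood above Nfkbib at 13.1 ± 1.28. The ratio of Nfkbib to Nfkbia per length was 2.84, 3.34 and 2.81 in treated 24 h libraries, against 0.746, 0.82 and 0.715 in vehicle 24 h libraries. At 4 h it was 0.815, 0.726 and 0.779 in treated libraries, against 0.528, 0.58 and 0.578 in vehicle libraries. The ratio was therefore above 1 in the treated 24 h libraries only, among these 12. The ratio of Nfkbia to Rela per length was 0.269, 0.233 and 0.275 in treated 24 h libraries, against 0.464, 0.46 and 0.441 in vehicle 24 h libraries. At 4 h this ratio was also lower in treated libraries, at 0.475, 0.444 and 0.452, against 0.701, 0.664 and 0.549 in vehicle libraries.

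The rest of the pathway was read from 7 lists with 106 further genes, each counted once, of which 92 were tested at 24 h and 96 at 4 h. Rel, Bcl3, Birc3, Traf1, Tnf and Il1b stand in 2 of the lists, and all lists were chosen with earlier results of these data known. At 24 h 41 were called higher and 34 lower, which is 81.5% of those tested, beside 74.7% of all genes. At 4 h 4 were called higher and 10 lower, 14.6% of those tested, beside 7.16% of all genes. Scaled by library totals alone, the 24 h calls were 33 higher and 39 lower, and the 4 h calls were 1 higher and 12 lower, beside 428 and 814 for all genes, where TMM gave 529 and 569. Without vehicle 4 h replicate 1 there were 22 calls at 4 h. Without treated replicate 1, 2 or 3 there were 9, 7 or 6, and without vehicle replicate 2 there were 9. Of the 75 genes called at 24 h 62 were called in every one of the 14 alternative fits, which include those that leave out a library, and of the 14 called at 4 h 5 were.

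Among the remaining family genes, Nfkbid, which encodes the nuclear I-kappa-B NS, rose at both times. It averaged 4.63 ± 1.42 CPM in treated and 0.845 ± 0.206 CPM in vehicle 24 h libraries (SD, n = 3 each; log2 fold change 2.45, adjusted p = 1.2e-07, edgeR). At 4 h it averaged 4.88 ± 0.402 CPM in treated and 2.06 ± 0.491 CPM in vehicle libraries (log2 fold change 1.25, adjusted p = 0.00327, edgeR). Rel, for the subunit c-Rel, rose at 24 h by 0.71 on the log2 scale, and Bcl3, for another nuclear I-kappa-B, was called lower at -0.46 (adjusted p = 0.0321, edgeR). The Bcl3 call was made in 5 of the 14 alternatives, and it was not made by DESeq2, by limma, in the fit of all 12 libraries, without treated 24 h replicate 1, 2 or 3, or without vehicle 24 h replicate 1 or 3. In the list of the IKK complex and upstream kinases 12 of 17 rose and 4 fell at 24 h, with a median of 0.44. That is 94.1% called, beside 74.7% of all genes, and scaling by library totals alone gave 10 higher and 4 lower. The 3 core IKK genes, named after their values were seen, were among those that rose. Ikbkg (NEMO, the scaffold) rose by 0.74, Chuk by 0.53 and Ikbkb by 0.44 on the log2 scale. The largest changes of that list were Ripk2, a kinase downstream of NOD receptors, at -0.88, and Irak2, a kinase downstream of Toll-like receptors, at 0.85. The others that fell were Ikbke, Irak1 and Tab1. At 4 h 1 of 17 was called, Map3k14 (NIK, the kinase of the non-canonical arm), at 0.41 (adjusted p = 0.0449, edgeR), and it was at 0.82 at 24 h. The 4 h call of Map3k14 was not made by limma, after scaling by library totals alone, or without replicate 2 or 3 of either 4 h group.

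Of the 16 adaptor and ubiquitin genes 8 rose and 4 fell at 24 h, with a median of 0.16. That is 75% called, beside 74.7% of all genes, so the number of calls is not particular to this list. Traf6, the ubiquitin ligase of the interleukin-1 and Toll-like receptor arm, averaged 73.2 ± 5.3 CPM in treated and 23.9 ± 1.09 CPM in vehicle 24 h libraries (SD, n = 3 each; log2 fold change 1.61). Birc2, the ubiquitin ligase cIAP1, fell at both times, by 1.36 at 24 h and 0.72 at 4 h on the log2 scale (adjusted p = 1.05e-09 and 0.00329, edgeR). Traf5, Rnf31 and Rbck1 also fell at 24 h. Scaled by library totals alone, 5 of the adaptor and ubiquitin genes were higher and 4 lower at 24 h. Ticam1 and Traf2, adaptors of Toll-like and TNF receptors, were called higher at 4 h, at 0.43 and 0.35 on the log2 scale. Neither was called by limma, after scaling by library totals alone, or without replicate 2 or 3 of either 4 h group, and Traf2 was not called without treated 4 h replicate 1 either. Of 13 tested negative regulators 7 rose and 2 fell at 24 h, with a median of 0.44. That is 69.2% called, beside 74.7% of all genes, and scaling by library totals alone gave 7 higher and 5 lower. Tax1bp1, an adaptor of A20, averaged 479 ± 17.9 CPM in treated and 170 ± 5.56 CPM in vehicle 24 h libraries (SD, n = 3 each; log2 fold change 1.49). Pdlim2, a nuclear ubiquitin ligase for RelA, averaged 26.2 ± 5.24 CPM in treated and 109 ± 7.07 CPM in vehicle 24 h libraries (log2 fold change -2.05), and Zc3h12a, an RNase that destroys cytokine messages, fell by 0.41. At 4 h 0 of these 13 were called by edgeR, with 0 at an unadjusted p under 0.05 and 0 by DESeq2 or limma.

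Of 13 tested receptors 5 rose and 6 fell at 24 h, which is 84.6% called, beside 74.7% of all genes. Cd40, a TNF family receptor of the non-canonical arm, averaged 42.9 ± 2.14 CPM in treated and 11 ± 0.735 CPM in vehicle 24 h libraries (SD, n = 3 each; log2 fold change 1.96, adjusted p = 2.66e-14, edgeR). The others that rose were Tlr4, Tnfrsf12a, Ltbr and Ager, of which Ager was called in only 4 of the 14 alternatives. Tlr3, a receptor for double-stranded RNA, fell by 1.76. At 4 h 2 receptors fell, Il1r1 by 0.50 and Il1rap by 0.39 on the log2 scale, the 2 chains of the interleukin-1 receptor. Neither was called without treated 4 h replicate 2 or 3, and Il1rap was not called by limma, without treated 4 h replicate 1 or without vehicle 4 h replicate 3. Only 6 of the 11 ligand genes were tested at 24 h, of which 3 fell and 1, Tnfsf13b, was called higher at 0.79. That is 66.7% called, beside 74.7% of all genes. Tnfsf13b was not called by limma or without treated 24 h replicate 3. Tnfsf15, a TNF family ligand, averaged 1.03 ± 0.281 CPM in treated and 8.29 ± 0.634 CPM in vehicle 24 h libraries, and 6.17 ± 0.321 CPM in treated and 34.6 ± 5.3 CPM in vehicle 4 h libraries (SD, n = 3 each). Its log2 fold changes were -2.99 at 24 h and -2.49 at 4 h (adjusted p = 5.96e-11 and 1.16e-06, edgeR). The other ligands that fell at 24 h were Tnfsf11 by 2.20 and Tnfsf12 by 0.49, and Tnfsf12 was not called without treated 24 h replicate 3.

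More target genes fell than rose. Of the 37 listed 29 were tested at 24 h, and 15 fell and 7 rose. That is 75.9% called, beside 74.7% of all genes (36.7% higher and 38% lower), so the number of calls is not particular to the targets. The median log2 fold change of the targets was -0.47, beside -0.02 for all genes. The list was chosen with earlier results of these data known, so its median is a description and not a test. Il6, the interleukin-6 gene, averaged 2.21 ± 0.557 CPM in treated and 16.9 ± 0.713 CPM in vehicle 24 h libraries, with a log2 fold change of -2.95 (SD, n = 3 each; adjusted p = 7.89e-13, edgeR). The chemokine gene Cxcl10 averaged 1.17 ± 0.65 CPM in treated and 17.6 ± 6.27 CPM in vehicle 24 h libraries, with a log2 fold change of -3.97 (SD, n = 3 each; adjusted p = 0.00158, edgeR). Among the 7 that rose were Ptgs2 (cyclooxygenase-2) by 1.80 and the stress gene Gadd45b by 1.47, both named after their values were seen. At 4 h 34 were tested, 6 fell (Il6, Lif, Ccl2, Ccl7, Ptx3 and Sdc4) and 0 rose, which is 17.6% called, beside 7.16% of all genes. At an unadjusted p under 0.05, 2 were higher, C3 and Csf1, and 0 were called higher by DESeq2 or limma. Lif, the leukaemia inhibitory factor gene, averaged 137 ± 22 CPM in treated and 333 ± 20.1 CPM in vehicle 4 h libraries, with a log2 fold change of -1.28 (SD, n = 3 each; adjusted p = 4.61e-05, edgeR). Il6 at 4 h averaged 9.05 ± 2.57 CPM in treated and 23.7 ± 2.23 CPM in vehicle libraries, with a log2 fold change of -1.39 (adjusted p = 0.000746, edgeR). Without treated 4 h replicate 1 or replicate 3 the number of target genes called at 4 h was 3. Il6 and Lif were called at 4 h in all 14 alternatives, Ccl7 and Sdc4 in 11 and 12, Ptx3 in 9 and Ccl2 in 6.

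**Figure D4:**
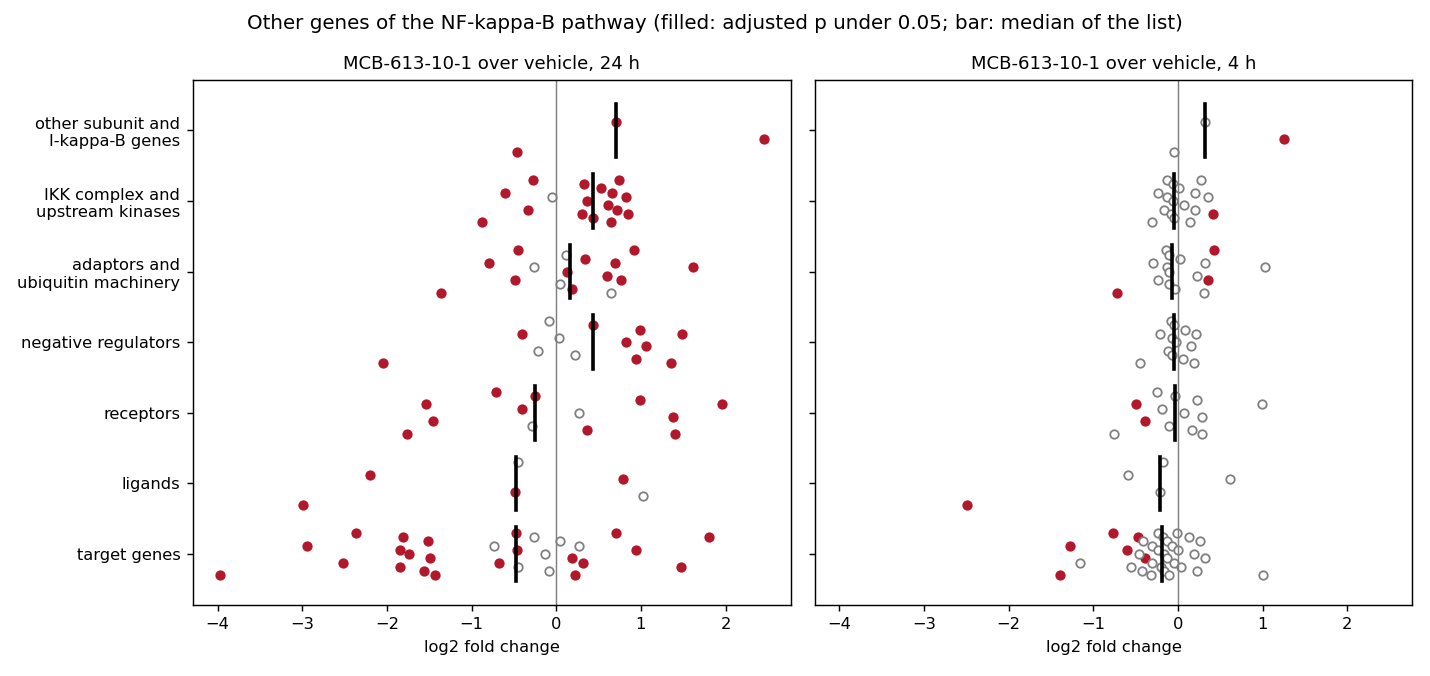
Log2 fold change of MCB-613-10-1 over vehicle for the tested genes of the 7 lists, at 24 h and at 4 h. Each point is a gene, filled where the adjusted p was under 0.05, the black bar is the median of the list, and vertical spread within a list has no meaning. At 24 h the median is 0.44 for the kinases and -0.47 for the target genes.

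Macrophages, which can make many of these cytokines, and other leukocytes were measured by 13 markers. At 24 h 9 of the 11 tested fell and 2, Csf1r and Cd14, rose, and the summed level was 165 to 187 CPM in treated and 362 to 428 CPM in vehicle libraries. At 4 h 1 of 11, Lyz2, was called lower (in 9 of the 14 alternatives), and the sum was 74.8 to 96 CPM in treated and 104 to 113 CPM in vehicle libraries. Cd3e, the T cell marker, had 0 counts in every library. Smooth muscle and pericyte markers fell in 6 of 7 at 24 h, with a sum of 625 to 667 CPM in treated and 1783 to 2049 CPM in vehicle libraries. Fibroblast markers fell in 8 of 10 at 24 h and 1, Ddr2, rose. At 4 h 1 of these 10, Tcf21, was called lower (in 12 of the 14 alternatives), with a log2 fold change of -1.10. It averaged 37 CPM in treated and 79.1 CPM in vehicle 4 h libraries. Endothelial markers fell in 6 of 9 at 24 h and 3 (Cdh5, Kdr and Vwf) rose, with a sum of 52.3 to 53.2 CPM in treated and 55.7 to 63.8 CPM in vehicle libraries. Of 5 epicardial markers Upk3b and Upk1b fell and Krt19 rose, of 2 Schwann markers S100b fell, and 1 of the 8 cardiomyocyte markers, Tnnt2, was tested and fell. These marker counts stand beside 74.7% of all genes called at 24 h and 7.16% at 4 h. Not every 24 h marker call held in all 14 alternatives. Upk1b was called in 7, S100b in 9, Ptprc (a leukocyte marker that fell) in 11, Rgs5 (a pericyte marker that fell) in 12 and Csf1r in 13. The cardiomyocyte markers Myh6 and Myh7 had at most 6 counts in a library. The part of these markers in the values of the NF-kappa-B genes and their targets was not tested.

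By the rule fixed for it, the genes most like Nfkbib over the 12 libraries were Pip4k2c, Taf1a and Map2k3, with Pearson correlations of log2 CPM of 0.9947, 0.9946 and 0.9930. This is a description with no test, since the 12 libraries fall into 4 groups and share their scaling. Map2k3, the gene of a p38 kinase activator, averaged 477 CPM in treated and 194 CPM in vehicle 24 h libraries, and 303 CPM in treated and 286 CPM in vehicle 4 h libraries. Taf1a, for a subunit of the RNA polymerase I factor SL1, averaged 56.7 CPM in treated and 10.3 CPM in vehicle 24 h libraries. Pip4k2c, for a phosphoinositide kinase, averaged 164 CPM in treated and 53.5 CPM in vehicle 24 h libraries.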

How the data were processed

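Total RNA of 12 libraries was sequenced, 3 in each of 4 groups. Per the submitters' processing notes, which give no roles, the tools were HISAT2 2.0.5, featureCounts 1.5.0-p3, DESeq and DESeq2 on the build GRCm39. The authors deposited 1 table per time with raw read counts per gene, a signal per gene (counts divided by a size factor per library, per the file headers and values), FPKM, and their own log2 fold change, p-value and adjusted p-value. Separate deposited tables held the same FPKM values. The tables held no gene with fewer than 2 counts in all. The library total implied by the deposited FPKM was 0.954 to 0.981 times the count total in treated 24 h libraries. In vehicle 24 h libraries it was 1.098 to 1.11 times the count total, so FPKM carries a scaling between groups.

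Raw counts were tested here with edgeR 4.0.16 (quasi-likelihood, robust, limma 3.58.1, R 4.3.3) after its default filter on low counts and TMM scaling, with Benjamini-Hochberg adjustment over all genes tested. The responses at 24 h and at 4 h were each fitted on 6 libraries, and the difference of responses and the times on 12, joined by gene identifier. Levels are CPM after TMM over the 12 libraries, and RPKM divides by the deposited gene length. Library totals ranged from 25016754 to 34877090 counts. Other settings were DESeq2 1.42.0 (Wald test or size factors), library totals alone, no filter, all 12 libraries, a replicate block, limma-trend on log2(FPKM + 1) and log2(FPKM + 0.1) above a mean FPKM of 0.1, and each replicate left out. The tests were tested on simulated data. The genes, lists and tests were chosen with earlier results of these data known. Genes named are the 10, the 2 called genes per list and time with the largest change and at least 1 RPKM in the higher group, the 3 most correlated with the top riser (no member was called lower), and the members of counts of 5 or fewer. The core IKK genes, Ptgs2, Gadd45b and the antisense genes were named after their values were seen. Promoters are from the RefSeq table, a different build from that of the counts. A search of protein sequences was not used here.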

Additional observations from a re-analysis of the deposited data

Results flagged for a closer look

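For 5 of the 10 genes the response to MCB-613-10-1 differed between 24 h and 4 h by the interaction test. The difference of the log2 fold changes (24 h minus 4 h) was 1.64 for Nfkbib, 1.00 for Nfkbiz, 0.51 for Relb, 0.46 for Rela and 0.41 for Nfkb1, beside 26.7% of all genes with a called difference above 0.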

How the results depend on the processing

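At 24 h the number of the 10 genes called was 6 to 9 over the settings and 6 to 8 with a replicate left out, and the 6 that rose were called in every setting that was run. The remaining 4 were called in some. Nfkbia was -0.33 and Nfkbie -0.52 after scaling by library totals alone, and Tnip1 reversed to -0.07 there. At 4 h the 10 genes gave 1 call in the fit of all 12 libraries and 0 with any replicate left out. Of all genes 2198 were called at 4 h in that fit, and 547 or 571 by limma on FPKM, which called 7 of the pathway genes with either pseudocount. With a replicate left out the 4 h calls ranged from 443 to 1760 for all genes and from 6 to 22 for pathway genes. Of the 75 pathway genes called at 24 h, 3 had the opposite sign in 1 of the 14 alternatives. These were Tirap, Ube2n and Sod2, at 0.19, 0.13 and 0.19 in the main fit. Among the 10 genes, signs turned only for values near 0 that were not called. At 4 h Nfkb1 was 0.00 on FPKM with either pseudocount and -0.11 to 0.03 with one replicate left out. Nfkbie was -0.01 by library totals and -0.07 to 0.19 with one replicate left out. The difference of responses turned to -0.01 for Nfkbia by library totals. With one replicate left out it was -0.25 to 0.05 for Tnfaip3 and -0.13 to 0.07 for Tnip1.

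Replicate numbers were not taken as pairs. Deviations of libraries with the same number correlated at 0.013, 0.02 and -0.043 at 24 h and at 0.088, 0.083 and 0.109 at 4 h. Every 4 h library correlated best with its own number, which is a hint from the data and not from the design. With the replicate block, 2 of the 10 genes and 1953 of all genes were called at 4 h. At 24 h 7 of the 10 and 11474 of all genes were.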

Other observations

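Replicate 2 was the highest library of its group for 10 of the 10 genes in treated 4 h cells and for 9 of the 10 in vehicle 4 h cells. At 24 h replicate 3 of the treated group was highest for 7 of the 10 genes, and replicate 3 of the vehicle group was lowest for 7 of the 10. These counts cover the 10 genes only, with no share over all genes beside them. Whether they are particular to these genes was not tested.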
